A study of Mus musculus with 2 samples.

Results

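Prostanoids are short-lived lipid mediators, and 10 genes that make or sense them were followed by RNA-seq in mouse mesenteric arteries kept at 5 mM K+ or depolarized with 60 mM K+. The genes were taken by symbol from the 55573 genes listed: the phospholipase gene Pla2g4a, the cyclooxygenase genes Ptgs1 and Ptgs2, the terminal synthase genes Ptges, Ptgis and Ptgds, and the receptor genes Ptger2, Ptger3, Ptger4 and Ptgir. All 10 were found by their Ensembl identifier, and 8 of them had at least 10 reads in both libraries together, the minimum used for every count of genes. Both libraries came from wild type C57BL/6 mice of 10 weeks. Each was made from mesenteric artery pooled from 2 mice, and the labels give 60 min in solution for both. The control library was in 5 mM K+ and the depolarized library in 60 mM K+, so that with 1 library on each side, nothing below is checked against replicates.

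In prostanoid synthesis, a phospholipase frees arachidonic acid from membrane lipids, and a cyclooxygenase turns it into prostaglandin H2. Terminal synthases convert this intermediate to prostacyclin, prostaglandin E2 or prostaglandin D2, among others, and each product acts through its own G protein-coupled receptors. In the arterial wall, prostacyclin is best known as a relaxing and antithrombotic product.

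The study asked which genes are induced when membrane depolarization is coupled to transcription in vascular smooth muscle. Gene counts summed to 10480918 reads at 5 mM K+ and to 11289598 at 60 mM K+. The log2(fold-change) of a gene is its level in 60 mM K+ over its level in 5 mM K+ after scaling by trimmed mean of M-values (TMM), and 14829 genes had enough reads for it. Their median was -0.0047, and with scaling by total counts every value was lower by 0.21 (median -0.21). Each value has a 95% exact (Clopper-Pearson) interval, which covers counting error only and not the difference between animals. A log2(fold-change) above 1 or below -1 was taken as the fold limit, and 5.54% of the genes lay above it and 5.86% below. Of 8 smooth muscle markers, Acta2 had 187183 reads at 5 mM K+ and 199779 at 60 mM K+, and Myh11 had 154041 and 148394. The abundance was uneven, and Tagln had the fewest reads of these markers, 314 and 387. In the study's description of the preparation, the control segment was distal tissue removed before the rest was perfused with 60 mM K+, so that K+ and segment or handling cannot be told apart. In whole arteries, a larger share of a cell type and more RNA per cell cannot be told apart either.

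Of the prostanoid genes, Ptgs2, the inducible cyclooxygenase, had the largest difference, with a level 2.77-fold higher in 60 mM K+ (95% counting interval 2.61 to 2.95). The prostacyclin receptor gene Ptgir was 2.06-fold higher (1.82 to 2.33). The prostacyclin synthase gene Ptgis, the phospholipase gene Pla2g4a, the constitutive cyclooxygenase gene Ptgs1 and the prostaglandin E2 receptor gene Ptger4 were higher by less than the fold limit. The inducible prostaglandin E synthase gene Ptges was 1.84-fold lower (1.25 to 2.75). The reads of Ptger3 did not separate the libraries beyond counting error, and Ptgds and Ptger2 were at or near 0 reads. Thus 2 of 8 genes lay above the fold limit and 0 below it, where 5.54% and 5.86% of all genes did. Because the genes were chosen with earlier results of these data known, this comparison is a description and not a test. With total counts, and with FPKM and a pseudocount of 0.1, 1 gene lay above it, Ptgs2, and 1 below, Ptges. Of the 14829 genes, 601 lay above and 1285 below with total counts, and 497 and 1037 with these FPKM values. The counting interval lay above 0 for 6 of 8 genes and below 0 for 1. Of all genes, 25.0% had an interval above 0 and 20.3% had one below. An interval clears 0 more readily with more reads, and the 8 genes had 90 to 17890 reads in both libraries together. All genes were taken from 10 reads upward, so that these shares are not matched for depth.

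**Figure D1:**
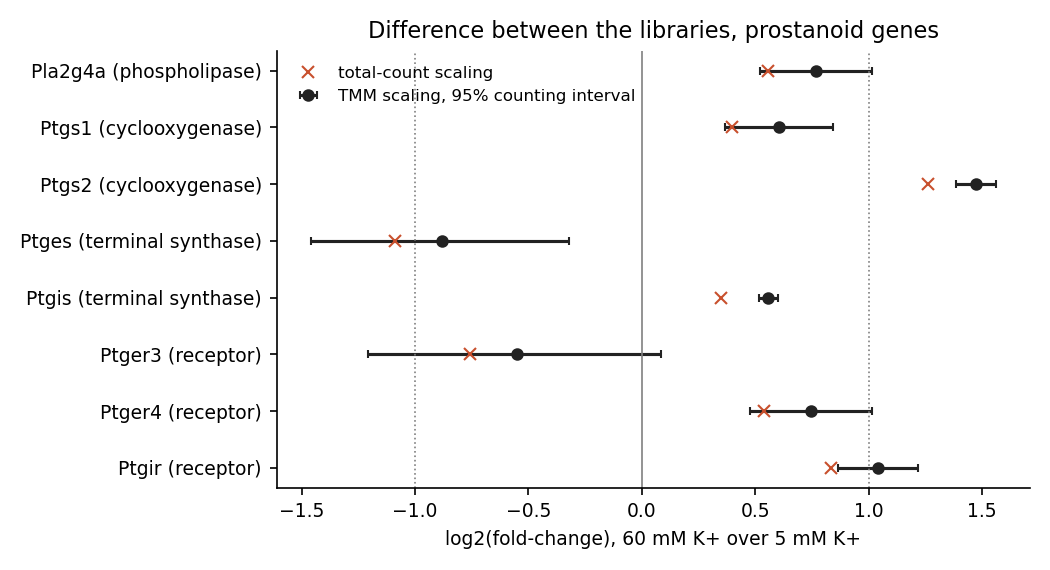
The log2(fold-change) of the 8 prostanoid genes with at least 10 reads, 60 mM K+ over 5 mM K+. Points are TMM-scaled values with 95% counting intervals, crosses are values scaled by total counts, and dotted lines mark the fold limit: the interval of Ptgs2 (1.38 to 1.56) lies above it and that of Ptgir (0.87 to 1.22) spans it.

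Pla2g4a (ENSMUSG00000056220; mm9 chromosome 1, 151676748 to 151808420, minus strand) encodes cytosolic phospholipase A2, the calcium-dependent enzyme that releases arachidonic acid. It had 222 reads at 5 mM K+ against 352 reads at 60 mM K+. These correspond to 12.3 and 18.1 FPKM, that is, fragments per kilobase of gene and per 1000000 counted, as the authors scaled them. The depolarized library was the higher, and the counting intervals of the levels, 10.7 to 14.0 and 16.3 to 20.1 FPKM, did not overlap. Its log2(fold-change) was 0.77 (0.52 to 1.02), and 8.27% of the 14829 genes had a higher value. Pla2g4a and Ptgs2 are neighbors on chromosome 1, 138834 bases apart with 0 protein-coding genes between them.

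Ptgs2 (ENSMUSG00000032487; chromosome 1, 151947254 to 151955140, plus strand) encodes cyclooxygenase-2, which is induced by many stimuli. It had 1465 reads at 5 mM K+ against 3788 reads at 60 mM K+, or 58.1 and 139 FPKM. Its log2(fold-change) was 1.47 (1.38 to 1.56), with 2.66% of all genes higher. It was the only prostanoid gene whose whole interval lay above the fold limit, as was the case for 1.77% of all genes. Ptgs1 (ENSMUSG00000047250; chromosome 2, 36085946 to 36107792, plus strand), which encodes the constitutively expressed cyclooxygenase-1, had 251 and 356 reads, or 15.9 and 20.9 FPKM. Both cyclooxygenase genes were higher in the depolarized library, Ptgs1 by a log2(fold-change) of 0.61 (0.37 to 0.84).

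The balance of the cyclooxygenase genes can be read within each library, where the scaling between libraries plays no part. Ptgs2 had 5.84 reads for each read of Ptgs1 at 5 mM K+ against 10.6 at 60 mM K+. This ratio was thus 1.82-fold higher in 60 mM K+, a log2 difference of 0.87 (95% counting interval 0.62 to 1.12). Per length, Ptgs2 was the more abundant cyclooxygenase mRNA in both libraries, with 78.5% of the summed FPKM of the pair at 5 mM K+ against 87.0% at 60 mM K+.

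Because the study examines the transcription factor CREB, which binds the cAMP response element (CRE), the 250 bases before the 5′-most start of a protein-coding transcript of each gene were searched on both strands. The sequences are those of mm9 with GENCODE vM1 starts, on the strand of the gene, with motif matches in capitals. The pair of cyclooxygenase genes is shown because their differences were unequal, followed by Ptgir, above the fold limit, and Ptges, which was lower.
Ptgs2, chr1:151947004-151947253, plus strand: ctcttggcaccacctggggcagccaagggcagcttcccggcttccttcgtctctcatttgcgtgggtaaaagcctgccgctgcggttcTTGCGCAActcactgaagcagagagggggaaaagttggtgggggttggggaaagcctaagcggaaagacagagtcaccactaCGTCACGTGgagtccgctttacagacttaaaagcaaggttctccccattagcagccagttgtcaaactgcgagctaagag
Ptgs1, chr2:36085696-36085945, plus strand: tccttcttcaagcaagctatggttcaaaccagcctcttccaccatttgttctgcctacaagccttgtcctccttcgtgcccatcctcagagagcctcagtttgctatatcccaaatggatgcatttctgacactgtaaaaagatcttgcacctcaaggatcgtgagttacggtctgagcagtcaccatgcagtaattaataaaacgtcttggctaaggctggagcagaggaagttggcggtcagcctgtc
Ptgir, chr7:17491589-17491838, plus strand: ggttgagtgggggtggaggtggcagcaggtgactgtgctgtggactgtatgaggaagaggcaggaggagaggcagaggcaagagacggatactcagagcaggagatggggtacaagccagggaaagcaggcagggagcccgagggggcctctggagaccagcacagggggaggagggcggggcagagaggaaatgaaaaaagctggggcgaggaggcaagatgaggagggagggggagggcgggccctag
Ptges, chr2:30758820-30759069, minus strand: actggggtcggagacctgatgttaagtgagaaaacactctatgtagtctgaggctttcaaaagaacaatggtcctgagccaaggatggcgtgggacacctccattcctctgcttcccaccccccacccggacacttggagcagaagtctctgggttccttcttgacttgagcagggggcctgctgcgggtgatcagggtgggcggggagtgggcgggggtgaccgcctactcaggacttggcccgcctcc

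The full CRE, TGACGTCA, was in 0 of 10 of these windows and in 1.94% of the windows of 22372 protein-coding genes. The shorter half-site TGACG was found before Ptgs2, from 80 to 76 bases upstream of the start, where it reads CGTCA on the strand of the gene. It overlaps an E-box, CACGTG, from 77 to 72 bases upstream. The C/EBP palindrome TTGCGCAA was also found before Ptgs2, from 162 to 155 bases upstream. Of all windows, 19.4% held the half-site, 6.53% the E-box and 0.183% the C/EBP palindrome. A second half-site lay before Ptgis, from 196 to 192 bases upstream, so that 2 of 10 genes had one. The NF-kB consensus was in 0 of 10 windows and in 7.74% of all windows. Among 13056 windows of genes with at least 10 reads, 2.54% held the full CRE, 25.2% the half-site and 8.11% the E-box. The C/EBP palindrome was in 0.237% of these and the NF-kB consensus in 8.93%. Several patterns besides the CRE were searched, and no share was tested. In RefSeq on GRCm38.p6 the start of Ptgs2 is annotated 93 bases further upstream, which places the half-site and the E-box inside the transcript. The starts of Ptger2 and Ptger3 are also further upstream there, by 84 and 16 bases, and that of Ptges is 2 bases downstream. For Ptgds and another start of Pla2g4a no shared window was found, and Ptgis had no entry to compare. The motif matches describe letters near annotated starts and no binding was measured in these libraries.

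Ptgis (ENSMUSG00000017969; chromosome 2, 167017305 to 167066104, minus strand) encodes prostacyclin synthase and was the most abundant of the 10 genes in both libraries. It had 7540 reads at 5 mM K+ against 10350 at 60 mM K+, or 488 and 622 FPKM, rank 176 and rank 146 among all genes listed. Its log2(fold-change) was 0.56, with a narrow counting interval of 0.52 to 0.60. The depolarized library was thus higher than the control library, by less than the fold limit, and 12.6% of all genes had a higher value. Ptgis shares 156 exonic bases with 1110018N20Rik on the opposite strand, which had 41 and 31 reads. The library kit, as described, does not mark strand, so that reads there cannot be divided between these genes.

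Ptges (ENSMUSG00000050737; chromosome 2, 30744991 to 30785383, minus strand) encodes the microsomal prostaglandin E synthase that is known to work together with cyclooxygenase-2. It had 81 reads at 5 mM K+ against 41 reads at 60 mM K+, or 5.79 and 2.72 FPKM. The log2(fold-change) was -0.88 (-1.46 to -0.32), so that the depolarized library was lower, the opposite direction to Ptgs2. With total-count scaling it was -1.09, past the fold limit. Set against Ptgis within each library, Ptgis had 93.1 reads for each read of Ptges at 5 mM K+ against 252 at 60 mM K+. The log2 difference of the ratio of Ptges to Ptgis was -1.44 (-1.98 to -0.90). Ptgis held 98.8% of the summed FPKM of the 3 terminal synthase genes at 5 mM K+ against 99.5% at 60 mM K+. This share leaves out 8 further terminal synthase genes listed below, which summed to 166 FPKM at 5 mM K+ and 155 at 60 mM K+.

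Ptgds (ENSMUSG00000015090; chromosome 2, 25322229 to 25325566, minus strand), the lipocalin-type prostaglandin D synthase gene, had 0 reads at 5 mM K+ against 1 read at 60 mM K+. Taking 3 reads as the floor that a count of 0 allows, a one-sided bound below the two-sided Poisson end of 3.69 reads drawn in the plot of levels, the floor was 0.266 CPM (reads per 1000000 after TMM scaling) in the control library and 0.286 CPM in the depolarized library. No fold change is given, because both libraries lay under that floor.

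**Figure D2:**
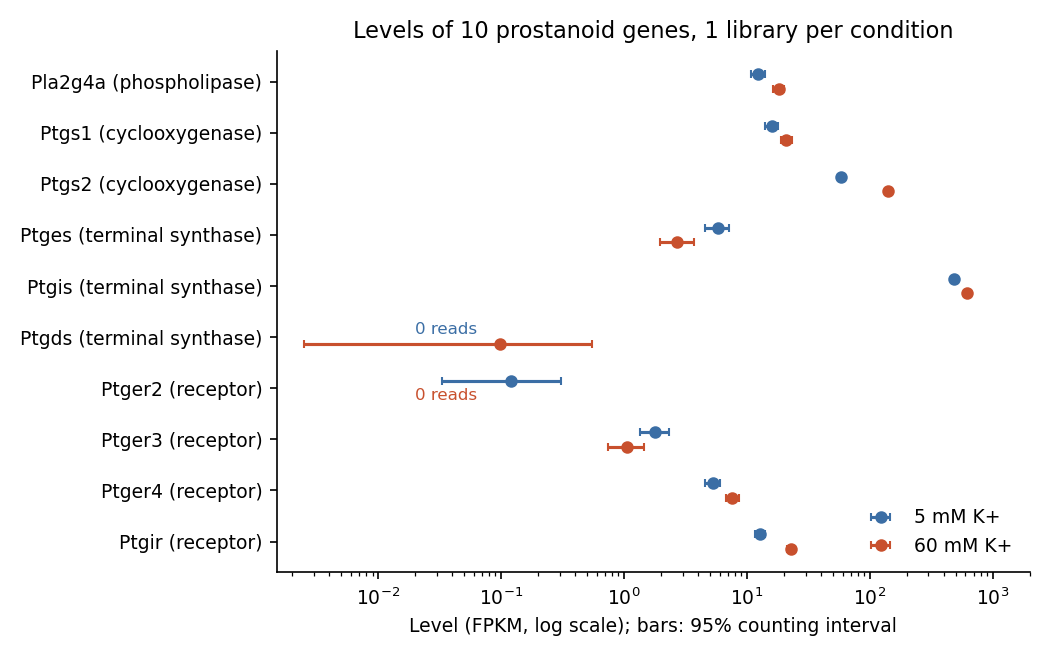
Levels of the 10 genes in FPKM on a log axis, in 5 mM K+ (blue) and 60 mM K+ (red), with 95% Poisson counting intervals as bars and 1 library per condition. Ptgis and Ptgs2 stand above the other genes in both libraries, and Ptges and Ptger3 lie lower in 60 mM K+, while the intervals of Ptger3 overlap.

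The receptor for prostacyclin is encoded by Ptgir (ENSMUSG00000043017; chromosome 7, 17491839 to 17496254, plus strand) and is known to raise cAMP in smooth muscle and platelets. Ptgir had 405 reads at 5 mM K+ against 777 reads at 60 mM K+, or 12.8 and 22.8 FPKM. Its log2(fold-change) of 1.04 (0.87 to 1.22) lay just above the fold limit, and 5.25% of all genes had a higher value. The call rested on the scaling: it was 1.03 with the median-of-ratios method of DESeq2, 0.998 with upper-quartile scaling and 0.83 with total counts.

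Of the receptors for prostaglandin E2, Ptger4 (ENSMUSG00000039942; chromosome 15, 5156661 to 5194187, minus strand) encodes EP4, which raises cAMP. It had 190 and 297 reads, or 5.26 and 7.63 FPKM, and the depolarized library was higher by a log2(fold-change) of 0.75 (0.48 to 1.02). The annotated exons of Ptger4 share 82 bases with Ttc33 and 1015 with the pseudogene Gm15937, both on the opposite strand. The count of Ptger4 is uncertain to that extent. Ttc33 had 185 and 159 reads and Gm15937 had 0 in both. Ptger3 (ENSMUSG00000040016; chromosome 3, 157229856 to 157307722, plus strand) encodes EP3, which lowers cAMP and can constrict vessels. It had 55 reads at 5 mM K+ against 35 at 60 mM K+, or 1.78 and 1.05 FPKM. The log2(fold-change) of Ptger3 was -0.55, and its interval of -1.21 to 0.09 held 0, so that a difference was not detectable at this depth.

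The ratio of the 2 receptor genes did differ beyond counting error. Ptger4 had 3.45 reads for each read of Ptger3 at 5 mM K+ against 8.49 at 60 mM K+, a log2 difference of 1.30 (0.63 to 1.96). For Ptger4 and Ptgir, which both were higher, the ratio was 0.469 and 0.382, and the log2 difference of -0.30 had an interval of -0.61 to 0.02. Ptger2 (ENSMUSG00000037759; chromosome 14, 45607870 to 45623495, plus strand), which encodes EP2, the other receptor of prostaglandin E2 that raises cAMP, had 4 reads at 5 mM K+ against 0 at 60 mM K+. The upper end of its counting interval was a log2(fold-change) of 0.70, so that these reads do not separate the libraries.

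Ordered by FPKM, the control library had Ptgis first, then Ptgs2, Ptgs1, Ptgir, Pla2g4a, Ptges, Ptger4, Ptger3 and Ptger2. Of these neighbors, Ptgs1 and Ptgir, Ptgir and Pla2g4a, and Ptges and Ptger4 had overlapping counting intervals. In the depolarized library Ptgir followed Ptgs2 and stood before Ptgs1 and Pla2g4a, and Ptger4 stood before Ptges, with overlaps between Ptgir and Ptgs1 and between Ptgs1 and Pla2g4a. The places depend on the gene length used: the lengths behind the deposited FPKM, 2406 bases for Ptgs2 and 1723 for Pla2g4a, are shorter than their exonic lengths in GENCODE vM1, 4143 and 6388. With those exonic lengths, 9 of 9 genes kept their place in the depolarized library and 5 of 9 in the control library. Ptgir then stood before Ptgs1, and Ptger4 before Ptges, in both libraries, so that neither change of place between the libraries was present with those lengths.

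**Figure D3:**
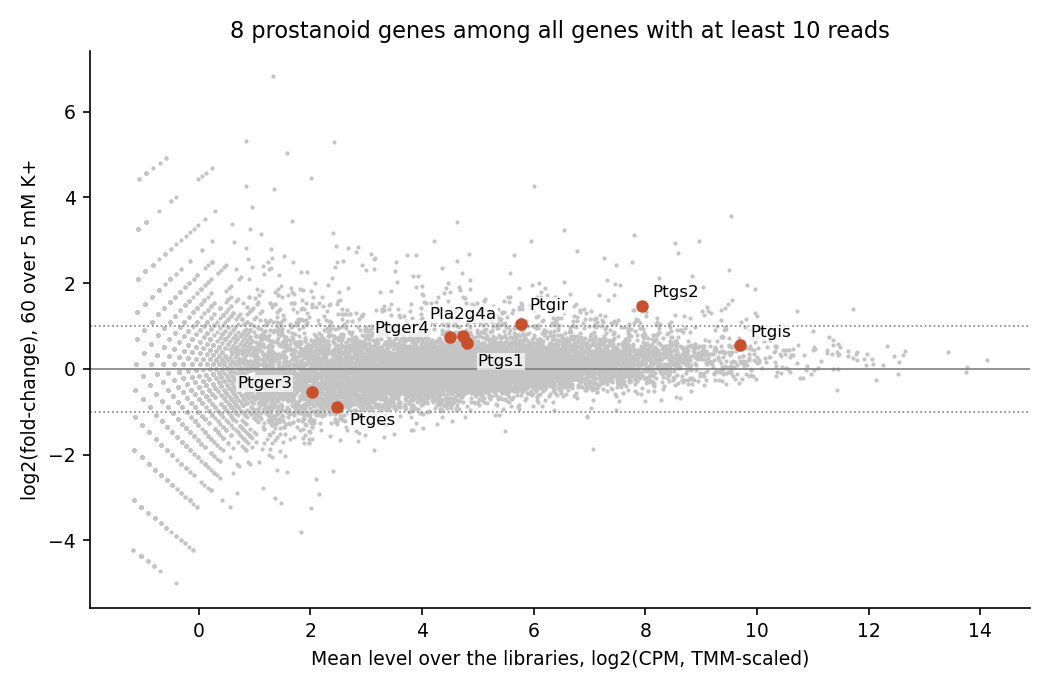
The log2(fold-change) of each gene with at least 10 reads (grey) against its mean TMM-scaled level in log2(CPM), with the 8 prostanoid genes in red and the fold limit dotted. Ptgs2 at 1.47 and Ptgir at 1.04 lie above the limit, Ptgis at 0.56 is the most abundant, and Ptges at -0.88 and Ptger3 at -0.55 have the lowest levels.

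Around these 10 genes, 34 further genes of prostanoid synthesis, sensing and removal were listed, and 21 had at least 10 reads. None of the 21 lay above the fold limit and 2 lay below it, where 5.54% and 5.86% of all genes did. The median log2(fold-change) of the 21 was -0.07. The counting interval lay above 0 for 5 genes, below 0 for 5 and held 0 for 11, where 25.0% and 20.3% of all genes had an interval above and below 0. The genes past the limit were the phospholipase genes Pla2g4c, with 14 reads at 5 mM K+ against 1 at 60 mM K+, and Pla2g3, with 10 and 1. Among the other phospholipases, the secreted enzyme gene Pla2g5 had 40 and 72 reads, a log2(fold-change) of 0.95 (0.37 to 1.54). The calcium-independent phospholipase gene Pla2g6 had 114 and 101 reads, with -0.07 (-0.47 to 0.33).

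Of the other prostaglandin E synthase genes, Ptges3, a cochaperone gene also known as a cytosolic prostaglandin E synthase, had 1225 and 1281 reads, a log2(fold-change) of 0.17 (0.05 to 0.28) that was -0.04 with total counts. Ptges2, the membrane-associated synthase gene, had 175 and 146 reads, with -0.16 (-0.49 to 0.17). Hpgds, the hematopoietic prostaglandin D synthase gene, had 1 and 0 reads, and Tbxas1, the thromboxane synthase gene, had 5 and 3. Akr1b3, an aldose reductase gene linked to prostaglandin F synthesis, had 717 and 849 reads and 0.35 (0.20 to 0.49). Prxl2b, a prostamide and prostaglandin F synthase gene, had 106 and 70 reads and the opposite direction, -0.50 (-0.95 to -0.05).

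Of the constrictor receptors, Tbxa2r, which encodes the thromboxane receptor, had 427 reads at 5 mM K+ against 276 at 60 mM K+, or 22.1 and 13.3 FPKM. It was lower in the depolarized library, by a log2(fold-change) of -0.53 (-0.75 to -0.31), whereas Ptgir was higher. Tbxa2r thus had the higher level of this pair in the control library and Ptgir in the depolarized library. Ptgfr, the prostaglandin F receptor gene, had 33 and 38 reads, with 0.30 (-0.41 to 1.02). For removal of prostaglandins, the uptake transporter gene Slco2a1 had 1668 and 1777 reads, with 0.19 (0.10 to 0.29) that was -0.02 with total counts. The dehydrogenase gene Hpgd, which inactivates prostaglandins, had 32 and 27 reads, with -0.14 (-0.94 to 0.64). Ptgr1 and Ptgr2, both reductases of prostaglandin breakdown, stood apart in direction, at 0.63 (0.32 to 0.94) and -0.52 (-0.87 to -0.18).

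The lipoxygenase branch, which leads from the same arachidonic acid to leukotrienes, was read in the same way. Of 9 genes, 5 had at least 10 reads, with 0 past the fold limit in either direction. Of all genes, 5.54% lay above the limit and 5.86% below, so that 0 of 5 does not set this branch apart. Lta4h, the leukotriene A4 hydrolase gene, had 444 and 538 reads, with 0.38 (0.19 to 0.56). Alox5, the 5-lipoxygenase gene, had 8 and 5 reads, and its partner gene Alox5ap had 0 in both.

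**Figure D4:**
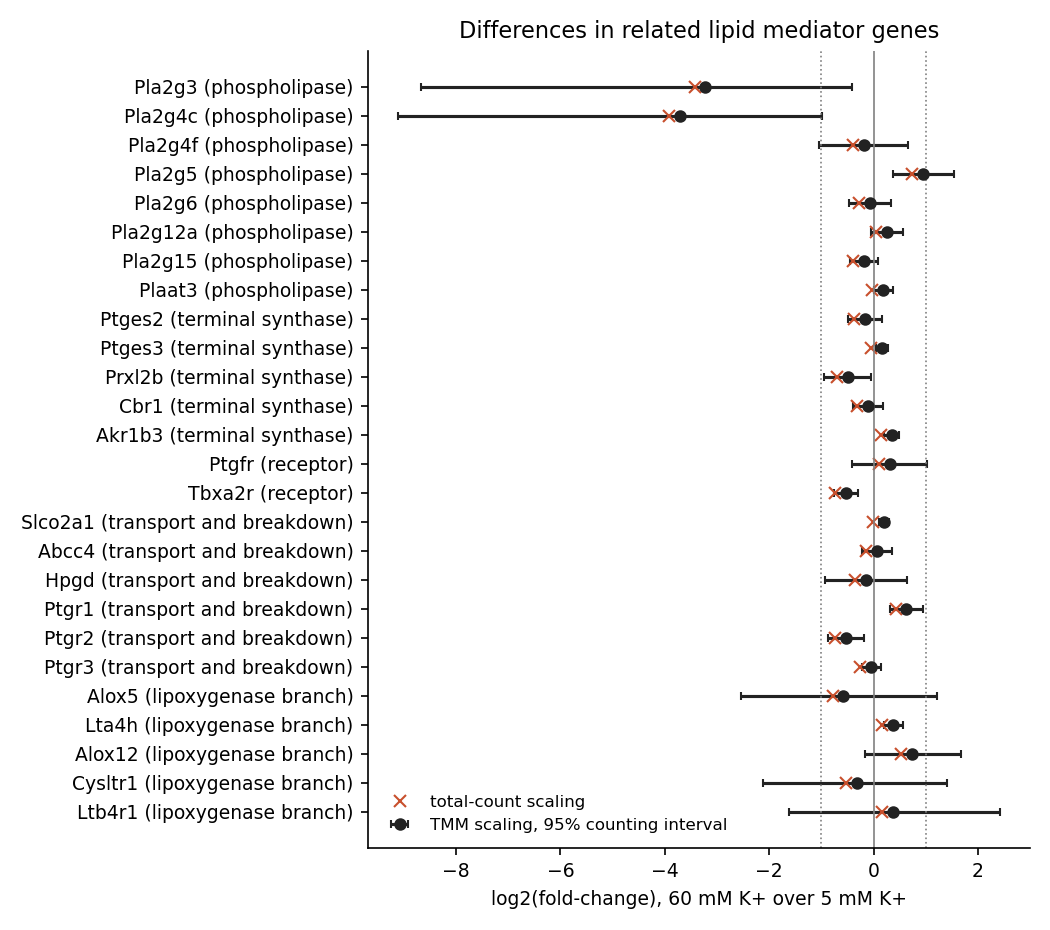
The log2(fold-change) of the 26 other prostanoid and lipoxygenase genes with at least 10 reads, with 95% counting intervals (black), values scaled by total counts (red crosses) and the fold limit (dotted). Pla2g3 and Pla2g4c lie below the limit with 1 read each in 60 mM K+, and Tbxa2r at -0.53 lies opposite to the prostacyclin receptor gene.

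Cyclooxygenase-2 and the prostanoid receptors are used by many cell types, so marker genes were read beside them. Of 9 endothelial markers, 7 had a counting interval above 0 and 1 below, with 37661 summed reads at 5 mM K+ against 47922 at 60 mM K+. The median of their log2(fold-change) was 0.33, from -1.10 for Kdr to 0.83 for Cdh5. With total counts the endothelial median was 0.12. Of the 9, 0 lay above the fold limit, where 5.54% of all genes did. For the interval counts of this and the following lists, 25.0% of all genes had an interval above 0 and 20.3% below. Macrophage markers summed to 562 and 448 reads, with a median of -0.20 over the 8 with at least 10 reads. Neutrophil markers had 2 and 1 reads in all, with S100a9 and Ly6g at 0 in both libraries. Mesothelial markers had 4 and 6, with Msln and Upk3b at 0 in both. For 8 smooth muscle markers the median was 0.12, and -0.09 with total counts, with 5 intervals above 0 and 3 below. Fibroblast markers summed to 47206 and 40746 reads, with a median of -0.08 and 5 of 7 intervals below 0. Adipocyte markers had a median of -0.90, from -2.39 for Plin1 to 3.27 for Lep, with 3 of 5 intervals below 0 and 1 above. The value of Lep rests on 1 read at 5 mM K+ and 9 at 60 mM K+. Schwann cell markers had a median of -0.27, with 2 of 4 intervals below 0, and mast cell markers summed to 22 and 29 reads. Pancreatic acinar markers summed to 131 and 444 reads, and 5 of 6 lay above the fold limit. The part of these cell types in the values of Ptgs2, Ptgir and the other prostanoid genes was not tested.

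**Figure D5:**
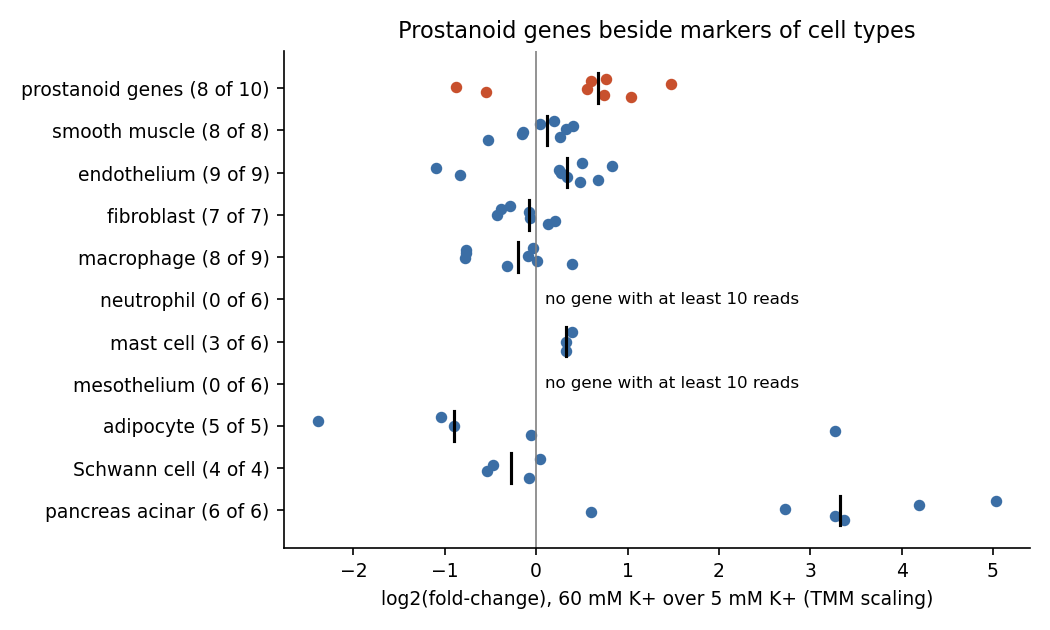
The log2(fold-change) of the 8 prostanoid genes (red) beside markers of cell types (blue), with the number with at least 10 reads of those listed in brackets and medians as black bars. The endothelial markers run from -1.10 to 0.83. Ptgs2 at 1.47 and Ptgir at 1.04 lie above this range and the other prostanoid genes lie within it, and the part of cell types was not tested. Pancreatic acinar markers reach 5.03.

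By level, the genes nearest to Ptgs2 over the 2 libraries were Tubb6, Plat and Dos, measured as the distance between log2(FPKM + 0.1) values. Tubb6, a tubulin gene, had 54.2 and 154 FPKM at a distance of 0.18. Plat, which encodes tissue plasminogen activator, had 66.5 and 145 FPKM at 0.20, and Dos had 58.8 and 117 FPKM at 0.25. With 1 value per condition, this likeness describes levels in 2 libraries only.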

How the data were processed

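Total RNA of mesenteric artery was enriched for mRNA and sequenced commercially as 1 library per condition. Alignment by the authors was to mm9, with TopHat2. They deposited unscaled counts of reads for each gene, and FPKM values; the submitters' processing notes also name TopHat2 2.0.12, HTSeq 0.6.1 and edgeR 3.0.8, without their roles. The annotation is not given in the sources used here: of 55573 identifiers, 32601 are in GENCODE vM1, with 99.1% of reads in both libraries. Reads per deposited FPKM had the same ratio between libraries, 1.08, for all 17356 genes with reads in both, equal to the ratio of total reads. Coordinates, names and promoters were taken from GENCODE vM1 on mm9.

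TMM scaling (edgeR 4.0.16, R 4.3.3) gave factors of 1.07 for 5 mM K+ and 0.930 for 60 mM K+. The log2(fold-change) and its 95% Clopper-Pearson interval, Poisson intervals and ratios were computed with scipy 1.17.1, with a count of 0 entered as 0.5. Intervals of within-library ratios used the normal approximation on the log scale. With 1 library per condition no test of the conditions was possible, the quasi-likelihood model of edgeR has no residual degrees of freedom, and no p-value is given. The study's own calls, made with DEGSeq, were not used. The interval was tested on simulated counts with counting error only. That simulation held no difference between animals and cannot show how the interval fares with it. Alternatives were total-count, upper-quartile and DESeq2 1.42.0 scaling, FPKM with pseudocounts of 0.1 and 1, minimum counts of 1 and 50 reads, and the nearest end of the interval; the exonic length was added after the data were seen.

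The genes and lists were chosen with earlier results of these data known. Named were the 10 genes, genes from among the other pathway genes with at least 10 reads, overlapping genes, the 3 genes nearest to Ptgs2 in level, and markers as lists with their extremes or defining genes. Outside this rule, Hpgds, Tbxas1 and Alox5ap are named after their low counts were seen. Figures were drawn with matplotlib 3.10.9.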

Additional observations from a re-analysis of the deposited data

How the results depend on the processing

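No paired analysis was possible because there was only 1 library at each K+ concentration, and for the same reason no library could be left out. Under the 5 alternative scalings and units, all 40 values of the 8 prostanoid genes kept their sign, and 11 moved beyond their counting interval. The number of prostanoid genes above the fold limit was 2, and it was 1, Ptgs2, with total counts, with upper-quartile scaling, with FPKM and a pseudocount of 0.1 or 1, and with the nearest end of the interval. Below the limit it was 0, and 1 with total counts and with FPKM and a pseudocount of 0.1, in both cases Ptges, and 1 without a minimum count, which adds Ptger2 at 4 and 0 reads. Without a minimum count 3 lay above the limit, with Ptgds added at 0 and 1 reads. Ptgs2 ranged from 1.25 to 1.46 and Ptges from -1.09 to -0.87 over these alternatives.

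Over all genes, 822 lay above the limit and 869 below, so that 48.6% of the genes past it were above. DESeq2 scaling gave 811 and 888, and upper-quartile scaling gave 778 and 931. Total counts gave 601 and 1285, with 31.9% of the genes past the limit above it, and FPKM with a pseudocount of 0.1 gave 497 and 1037. With a pseudocount of 1 these were 240 and 193, without a minimum count 3081 and 2491, with at least 50 reads 412 and 211, and with the nearest end of the interval 263 and 73. The number of genes admitted without a minimum count or with at least 50 reads is not given, so those counts are not shares. Of the other pathway genes, 2 lay below the limit, 5 without a minimum count, and 0 with a pseudocount of 1, at least 50 reads or the nearest end of the interval. Without a minimum count, 1 lipoxygenase gene lay above it. The cause of the differences between settings was not tested. Depth limits Ptger3, Ptger2 and Ptgds most, with 90, 4 and 1 reads in both libraries together.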
